A study of Mus musculus with 6 samples.

Results

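The genes of the mitochondrial calcium uniporter and of the voltage-dependent anion channels (VDACs) were examined in cardiomyocytes (CMs) that lack *Cpt1b*, the muscle isoform of the enzyme that lets long-chain fatty acids enter mitochondria. The set holds 8 genes, chosen by symbol for their role with earlier results of these data known, out of 16448 genes in the table: *Mcu*, *Smdt1*, *Micu2*, *Micu3*, *Letm1*, *Vdac1*, *Vdac2* and *Vdac3*. RNA-seq of 3 Cpt1bcKO samples was compared with 3 CtrlCre samples. Cpt1bcKO mice were αMHC-Cre pos/+;Cpt1b fl/fl, and CtrlCre mice were αMHC-Cre pos/+;Cpt1b +/+, so both groups carried the Cre transgene. All were C57BL/6 mice aged 8 to 12 weeks, and the labels name no treatment. The αMHC (*Myh6*) promoter drives Cre in CMs from embryonic stages. Ventricles were digested with enzymes and CMs collected by slow centrifugation, a step that enriches CMs but does not sort them. The study describes its groups of mice as biological replicates, with littermates as controls. In a figure that draws on RNA-seq of these groups it gives 3 mice each. The labels do not tie each sample to its own animal, and *P* values measure the spread between these samples.

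Calcium that is released for each heartbeat also enters mitochondria, where it stimulates dehydrogenases and so matches energy supply to contraction. It crosses the outer membrane through VDACs, the channels that also pass ATP, ADP and metabolites, and then the inner membrane through the uniporter. MCU forms the uniporter pore, EMRE (encoded by *Smdt1*) keeps the pore open to transport and ties it to its gatekeepers, and the MICU proteins are the gatekeepers that sense calcium with EF-hands. LETM1 is an inner membrane protein proposed to exchange calcium or potassium for protons.

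All 8 genes passed the filter on low values (3 samples or more with a value of 10 or above), and 0 of 8 reached an adjusted *P* value below 0.05 (limma with Benjamini–Hochberg adjustment over 11364 genes), beside 1.57% of all genes tested (0.66% higher and 0.906% lower in Cpt1bcKO). *Letm1* alone had an unadjusted *P* value below 0.05, 1 of 8 genes beside a background of 13.9% (6.66% higher and 7.22% lower). *Letm1* was also the only one of the 8 whose groups did not overlap, beside 18.7% of all genes tested (9.13% higher and 9.6% lower). Over all genes 75 were called higher and 103 lower, a split that became 103 and 74 with another scaling, to the summed values of nuclear genes without rRNA. At an unadjusted *P* value below 0.05 in limma the split was 757 higher and 821 lower, and 1221 and 505 with that scaling. *Vdac1* and *Vdac3* were at 0.755 and 0.753 times the control level in Cpt1bcKO CMs with overlapping groups, and the means of the other 5 genes differed by less than the spread between samples. The median log2 fold change of the 8 genes was −0.053, beside −0.0013 over all genes tested. With a block for the replicate number 1 of the 8 genes, *Vdac1*, was called, beside 5.31% of all genes tested.

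**Figure D1:**
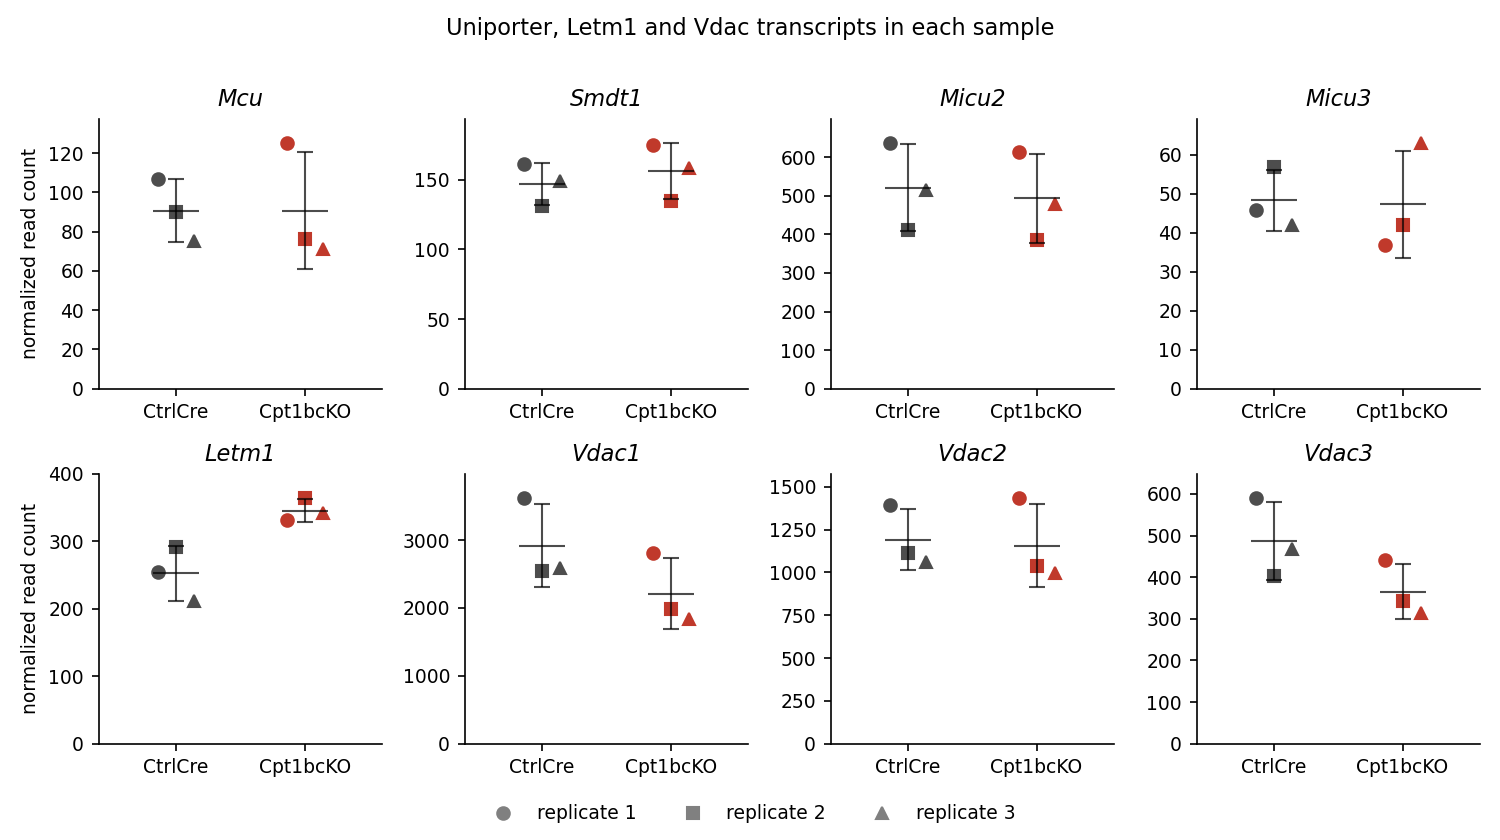
Normalized read count (vertical axis, from 0) of each of the 8 genes in the 3 CtrlCre (grey) and 3 Cpt1bcKO (red) samples, with symbols for the replicate number, and bars for the mean and SD. *Letm1* is the gene in which the red points, from 331 to 364, all lie above the grey ones, from 211 to 292.

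Values are called normalized counts, since their steps are those of read counts scaled per sample and rounded. Neither the paper nor the labels state the scaling of the deposited values, although the paper plots expression in CtrlCre CMs as normalized with DESeq. The labels were checked on the targeted gene. *Cpt1b* had 1861, 893 and 1443 normalized counts in CtrlCre and 211, 353 and 285 in Cpt1bcKO samples 1, 2 and 3 (log2 fold change −2.27, adjusted *P* = 0.00338 in limma, and 0.0563 with 1 prior variance for all genes). Sums of values per sample lay between 13393411 and 31722217, and 61.8% to 80.8% of them belonged to the mitochondrial rRNA gene *mt-Rnr2*, with the highest share in Cpt1bcKO sample 3. With rRNA and all mitochondrial-encoded genes left out, sums were 3438589 to 3551692 in CtrlCre and 3146414 to 3315777 in Cpt1bcKO samples, without overlap. All 12 listed CM markers were detected, and all 12 were lower in Cpt1bcKO (median log2 fold change −0.38, 3 with an unadjusted and 0 with an adjusted *P* value below 0.05). Of 8 fibroblast markers, 7 were tested and all 7 were higher (median 1.12, 7 with an unadjusted and 2 with an adjusted *P* value below 0.05). Their summed values were 498 to 785 in CtrlCre and 1108 to 1338 in Cpt1bcKO samples, against 667181 to 758977 and 453460 to 669824 for the CM markers. None of the 8 fibroblast markers was at 0 in all samples. All 8 endothelial markers were higher as well (median 0.34, 2 with an unadjusted and 0 with an adjusted *P* value below 0.05), with sums of 1483 to 3086 in CtrlCre and 2851 to 3317 in Cpt1bcKO samples. Sums of 3 atrial markers were 146 to 265 and 477 to 720, of which *Nppa* made up 93 to 177 and 384 to 683 (adjusted *P* = 0.00917 in limma), while *Myl4* and *Myl7* overlapped between the groups. The paper reports increased *Nppa* in *Cpt1b*-deficient CMs by quantitative PCR, as a marker of dedifferentiation, and atria had been separated from the ventricles. Sums of 8 smooth muscle and pericyte markers were 3907 to 5066 and 2879 to 3283. Of the 6 tested, 3 were higher and 3 lower, and only *Abcc9* (2839 to 2867 against 1579 to 1739) was called (adjusted *P* = 0.0123 in limma). *Acta2* had 526, 244 and 391 normalized counts in CtrlCre and 230, 134 and 132 in Cpt1bcKO samples (adjusted *P* = 0.0835 in limma), and these were the 2 genes of the list with an unadjusted *P* value below 0.05. Without *Abcc9* the sums overlapped, with 1068 to 2227 in CtrlCre and 1140 to 1704 in Cpt1bcKO samples. Sums of 8 immune cell markers were 90 to 140 and 110 to 129. The part of other cells' RNA in the results given here was not tested. In RNA from many cells, fewer cells of a type and less RNA per cell cannot be told apart.

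The levels of the genes were ordered per exonic length, since a longer transcript yields more reads. *Vdac1* led with a mean of 978 normalized counts per kilobase of exon over the 6 samples, and ranked 90 among 10383 protein-coding genes tested. *Vdac2* followed with 246, *Micu2* with 164, *Smdt1* with 102 and *Vdac3* with 78.7 normalized counts per kilobase. *Letm1* had 31, *Mcu* 13.1 and *Micu3* 7.77 normalized counts per kilobase. *Vdac1* stood above *Vdac2* in all 6 samples without overlap, and so did *Vdac2* above *Micu2* and *Micu2* above *Smdt1*. *Smdt1* and *Vdac3* overlapped, with *Smdt1* higher in 5 of 6 samples and both genes at 108.9 in CtrlCre sample 1. *Mcu* and *Micu3* overlapped too, with *Mcu* higher in 5 of 6 samples and both genes at 10.24 in Cpt1bcKO sample 3. The pore gene *Mcu* ranked 6032 of 10383. On the same scale *Smdt1* was 7.84 times and *Micu2* 12.6 times as high as *Mcu*. These are levels of RNA over all annotated exons, which includes any exon that CMs do not use.

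**Figure D2:**
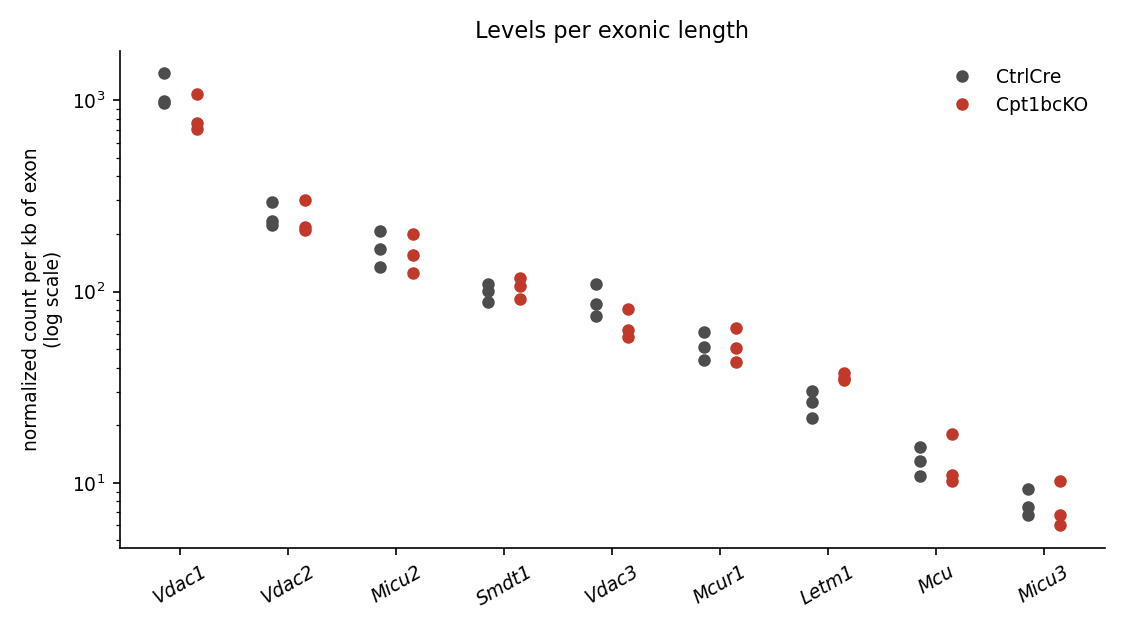
Normalized count per kilobase of exon (vertical axis, log scale) in each CtrlCre (grey) and Cpt1bcKO (red) sample, for the 8 genes and for *Mcur1*, ordered by their mean. The means run from 978 for *Vdac1* to 7.77 for *Micu3*, and the groups lie close together beside the differences between most genes.

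Promoter sequences from RefSeq (GRCm38.p6) were matched by symbol for 5 of the 8 genes, *Mcu*, *Micu2*, *Smdt1*, *Letm1* and *Vdac1*. They are shown for *Letm1*, the gene whose groups did not overlap, for *Vdac1*, the most abundant one, and for *Mcu*, the pore. Each is the 250 bases before the annotated start, written 5′ to 3′ on the strand of the gene, with motif matches in capitals. The windows are chr5:33782718-33782967 (minus strand), chr11:52360601-52360850 (plus strand) and chr10:59616693-59616942 (minus strand). The start that RefSeq gives for *Letm1* lies 100 bases inside the gene as the table bounds it, and the *Vdac1* window is 1 of 2 RefSeq entries.
*Letm1*: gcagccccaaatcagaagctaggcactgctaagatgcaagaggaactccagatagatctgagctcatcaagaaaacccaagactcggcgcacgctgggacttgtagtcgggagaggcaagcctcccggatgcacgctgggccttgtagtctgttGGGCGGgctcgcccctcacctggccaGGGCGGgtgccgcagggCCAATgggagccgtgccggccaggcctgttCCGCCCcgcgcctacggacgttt
*Vdac1*: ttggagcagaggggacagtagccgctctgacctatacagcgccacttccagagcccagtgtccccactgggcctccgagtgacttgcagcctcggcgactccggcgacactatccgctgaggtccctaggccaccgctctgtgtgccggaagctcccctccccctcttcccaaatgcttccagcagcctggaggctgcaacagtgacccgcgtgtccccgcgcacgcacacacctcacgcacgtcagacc
*Mcu*: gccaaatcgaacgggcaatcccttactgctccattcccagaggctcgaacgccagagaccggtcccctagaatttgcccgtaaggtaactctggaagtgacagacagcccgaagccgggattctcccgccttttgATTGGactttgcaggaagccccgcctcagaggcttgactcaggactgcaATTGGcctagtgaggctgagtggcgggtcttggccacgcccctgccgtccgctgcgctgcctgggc
The motifs searched on both strands were 2 copies of GCGC parted by 2 bases (NRF1, a regulator of many mitochondrial genes), AAGGTCA (estrogen-related receptors), CCAAT (the CCAAT box) and GGGCGG (the GC box), none of which contains another. The *Letm1* window held 3 GC boxes and 1 CCAAT box, the *Mcu* window held 2 CCAAT boxes, and the *Vdac1* window held no match to these letters. *Smdt1* had 3 GC boxes and *Micu2* had 1. Over 32851 such windows of all genes, 32.7% held the GC box, 33.8% the CCAAT box, 4.98% the NRF1 motif and 4.08% the receptor motif, and none of the 5 windows held either of the last ones. A match describes letters only and says nothing of binding in these cells.

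*Mcu* (ENSMUSG00000009647, minus strand of chromosome 10 from 59446984 to 59616692, GRCm38), the pore, had 107, 90 and 75 normalized counts in CtrlCre and 125, 76 and 71 in Cpt1bcKO samples 1, 2 and 3. Both the highest and the lowest value were in Cpt1bcKO samples, and the means of both groups were 90.7. The log2 fold change was −0.032 (95% interval −0.60 to 0.53, adjusted *P* = 0.973 in limma), which spans 0.661-fold to 1.45-fold.

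*Smdt1* (ENSMUSG00000022452, plus strand of chromosome 15 from 82345954 to 82349090), which encodes EMRE, had 161, 131 and 149 normalized counts in CtrlCre and 175, 135 and 158 in Cpt1bcKO samples. The groups interleaved, and the spread within each was small. The log2 fold change was 0.082 (95% interval −0.31 to 0.48, adjusted *P* = 0.878 in limma). Exons of *Smdt1* share 245 bases with the annotated gene *Pheta2* on the same strand in GENCODE vM21, and reads on several genes had been left out of the counts.

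*Micu2* (ENSMUSG00000021973, minus strand of chromosome 14 from 57916261 to 57999262), a calcium-sensing gatekeeper of the pore, had 636, 412 and 514 normalized counts in CtrlCre and 614, 386 and 479 in Cpt1bcKO samples. Replicate 1 was highest and replicate 2 lowest in both groups. The log2 fold change was −0.082 (95% interval −0.55 to 0.38, adjusted *P* = 0.899 in limma). *Micu3* (ENSMUSG00000039478, plus strand of chromosome 8 from 40307458 to 40384662), a gatekeeper best known from the nervous system, had 46, 57 and 42 normalized counts in CtrlCre and 37, 42 and 63 in Cpt1bcKO samples. Exons of *Micu3* share 202 bases with *Fgf20* on the opposite strand in GENCODE vM21, and the strand setting of the counting was not given. The Cpt1bcKO samples spanned the whole range of the controls, and the log2 fold change was −0.055 (95% interval −0.65 to 0.54, adjusted *P* = 0.953 in limma). When samples were instead scaled to their nuclear genes without rRNA, the log2 fold changes of *Mcu*, *Micu2*, *Micu3* and *Vdac2* were above 0, so no direction is given for them.

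*Letm1* (ENSMUSG00000005299), which lies on the minus strand of chromosome 5 from 33739673 to 33782817, was measured at 255, 292 and 211 normalized counts in CtrlCre and 331, 364 and 342 in Cpt1bcKO samples. Every Cpt1bcKO sample was above every CtrlCre sample, and the Cpt1bcKO samples lay close together (346 ± 16.8 against 253 ± 40.6, SD, *n* = 3 each). The log2 fold change was 0.46 (standard error 0.164, 95% interval 0.098 to 0.83), which is 1.38-fold. The unadjusted *P* value was 0.0178 and the adjusted one 0.235 in limma, so the difference was not called. Leaving out each sample in turn gave log2 values from 0.34 to 0.57 (adjusted *P* from 0.172 to 0.591 in limma).

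*Vdac1* (ENSMUSG00000020402, plus strand of chromosome 11 from 52360860 to 52389397), the most abundant channel of the outer membrane, had 3618, 2541 and 2590 normalized counts in CtrlCre and 2806, 1980 and 1844 in Cpt1bcKO samples. Cpt1bcKO sample 1 lay above CtrlCre samples 2 and 3, and the other Cpt1bcKO samples lay below all controls. The log2 fold change was −0.41 (standard error 0.198, 95% interval −0.84 to 0.034, unadjusted *P* = 0.0670 and adjusted *P* = 0.399 in limma). With a block for the replicate number *Vdac1* was called (adjusted *P* = 0.0432 in limma), although the numbers were not taken as pairs. *Vdac3* (ENSMUSG00000008892), which lies on the minus strand of chromosome 8 from 22577075 to 22593813, was measured at 590, 404 and 467 normalized counts in CtrlCre and 441, 342 and 314 in Cpt1bcKO samples. Its pattern was that of *Vdac1*, with only Cpt1bcKO sample 1 reaching into the control range. The log2 fold change was −0.41 (standard error 0.189, 95% interval −0.83 to 0.0087, unadjusted *P* = 0.0541 and adjusted *P* = 0.368 in limma). A pseudogene named for *Vdac3* is annotated, and reads that aligned to several regions had been left out.

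*Vdac2* (ENSMUSG00000021771, plus strand of chromosome 14 from 21831269 to 21845879), the isoform known for holding BAK at the outer membrane, had 1392, 1115 and 1061 normalized counts in CtrlCre and 1433, 1035 and 998 in Cpt1bcKO samples. The groups overlapped throughout, with a log2 fold change of −0.051 (95% interval −0.44 to 0.34, adjusted *P* = 0.930 in limma). Exons of *Vdac2* share 25 bases with *Comtd1* on the opposite strand in GENCODE vM21.

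**Figure D3:**
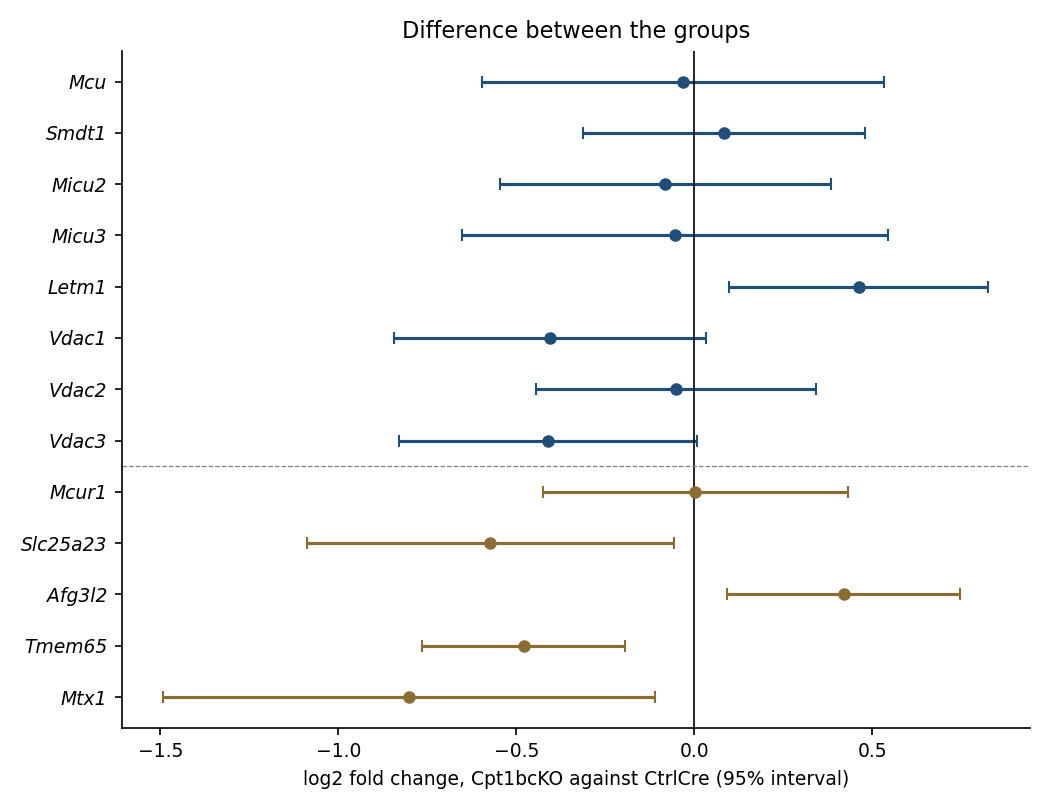
Log2 fold change of Cpt1bcKO against CtrlCre (horizontal axis) with its 95% interval from limma for the 8 genes (blue, above the dashed line) and for 5 other genes of the pathway named in the text (brown). Among the 8 genes only the interval of *Letm1*, 0.098 to 0.83, lies wholly on one side of 0.

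Ratios between genes of a sample do not depend on how the sample was scaled, and 9 of them were compared. The log2 ratio of *Vdac1* to *Vdac2* was 1.38, 1.19 and 1.29 in CtrlCre and 0.97, 0.94 and 0.89 in Cpt1bcKO samples. The Cpt1bcKO samples lay below all controls, by 0.35 on average, with an exact two-sided permutation *P* value of 0.10, the smallest that this design allows, and 0.30 after adjustment over the 9 ratios. The log2 ratio of *Vdac2* to *Vdac3* was 1.24, 1.47 and 1.18 in CtrlCre and 1.70, 1.598 and 1.67 in Cpt1bcKO samples, again without overlap (difference 0.36, exact permutation *P* = 0.10, adjusted 0.30). The ratio of *Vdac1* to *Vdac3* was steady, with mean log2 values of 2.58 ± 0.096 in CtrlCre and 2.59 ± 0.073 in Cpt1bcKO samples (SD, *n* = 3 each). The summed *Vdac* counts relative to *Mcu* were lower in all Cpt1bcKO samples than in all controls, with a log2 difference of −0.27 (exact permutation *P* = 0.10, adjusted 0.30). The other 5 ratios overlapped. The log2 ratio of *Letm1* to *Mcu* was 1.48 ± 0.22 in CtrlCre and 1.98 ± 0.50 in Cpt1bcKO samples (SD, *n* = 3 each). The difference of 0.50 was the largest of the 9 in size (exact permutation *P* = 0.30, adjusted 0.675). With 1 sample left out this difference ranged from 0.35 to 0.78, and it was not the largest without Cpt1bcKO replicate 2 or 3. The ratios of *Smdt1*, *Micu2* and *Micu3* to *Mcu* differed between the groups by 0.12, −0.049 and −0.024 on the log2 scale, with SDs of 0.25 to 0.79 within groups. The ratios share genes, so they are not independent of each other.

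As a share of the summed *Vdac* counts, a quantity chosen after the ratios had been seen, *Vdac2* made up 24.9%, 27.5% and 25.8% in CtrlCre and 30.6%, 30.8% and 31.6% in Cpt1bcKO samples. *Vdac1* made up 64.6%, 62.6% and 62.9% in CtrlCre and 59.96%, 58.98% and 58.4% in Cpt1bcKO samples. The shares of both genes separated the groups, although the single counts of neither did. *Vdac3* made up 9.42% to 11.3% with overlapping groups. The share of *Vdac2* was 26.0% ± 1.32 in CtrlCre and 31.02% ± 0.529 in Cpt1bcKO (SD, *n* = 3 each), and the exact permutation *P* value was 0.10. Since the ratios of *Vdac2* to *Vdac1* and to *Vdac3* already separated the groups, the separation of this share was fixed in advance. The share restates those ratios and is no further test.

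**Figure D4:**
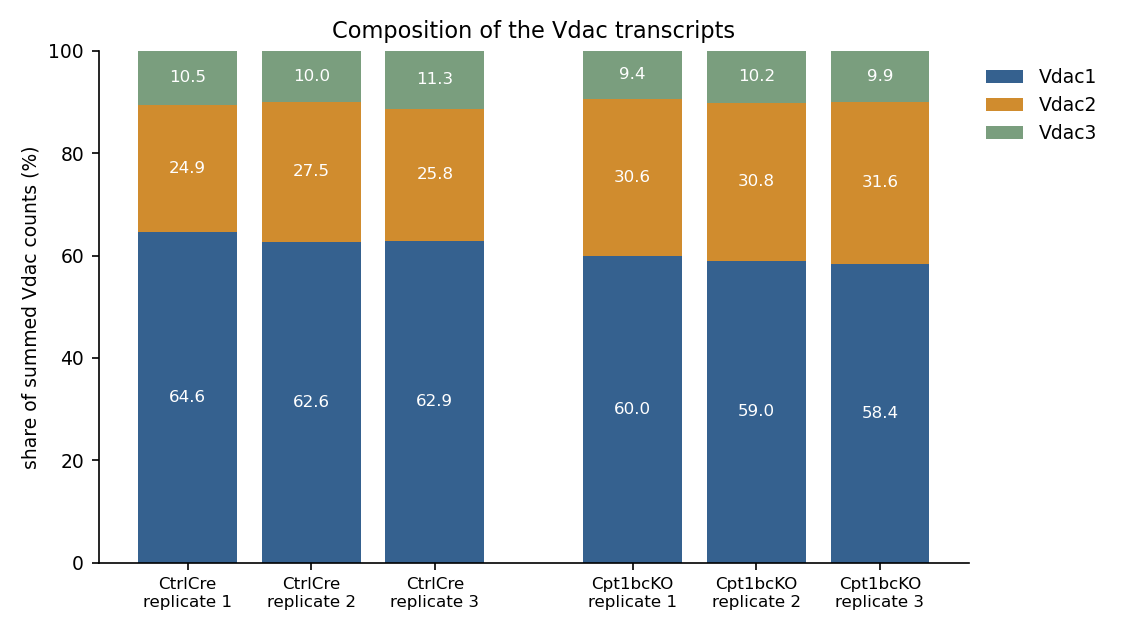
Share of *Vdac1*, *Vdac2* and *Vdac3* in their summed normalized counts (vertical axis, %) for each of the 6 samples. *Vdac2* takes 24.9% to 27.5% in the CtrlCre and 30.6% to 31.6% in the Cpt1bcKO samples.

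Of the 8 genes, 6 were highest in replicate 1 of CtrlCre and the same 6 were highest in replicate 1 of Cpt1bcKO, the exceptions being *Micu3* and *Letm1*. Over all genes tested, 21.6% were highest in replicate 1 of both groups. *Xist*, the noncoding RNA that females make from the inactive X chromosome, had 957, 41 and 23 normalized counts in CtrlCre and 1080, 34 and 78 in Cpt1bcKO samples 1, 2 and 3. The labels give no sex, and its part in the levels of these genes was not tested. The genes with the nearest patterns were sought among 6797 tested genes with a mean of at least 50, by the root mean square difference of log2 values, each centred on its mean over the 6 samples. Nearest to *Mcu* were *Mpc1* (difference 0.048), *Gpr146* (0.051) and *Pno1* (0.056). Nearest to *Letm1* were *Idua* (0.039), *Tmem131l* (0.057) and *Hspa4l* (0.064), and nearest to *Vdac3* were *Rnf2* (0.026), *Tmod1* (0.048) and *Glt8d1* (0.060).

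The remaining genes of the pathway were taken as 6 lists with 72 genes, of which 70 were tested. None had an adjusted *P* value below 0.05 in limma. An unadjusted one below 0.05 was reached by 1 higher and 3 lower genes, 4 of 70 beside a background of 13.9%. Values were higher for 23 of the 70 genes and lower for 47, beside 49.8% higher over all genes. The 70 include the 14 genes that stand for mitochondrial content, of which 1 was higher and 13 were lower. The median log2 difference was −0.077, smaller in size than the 0.11 by which scaling to nuclear genes without rRNA moved the median over all genes.

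Of 11 uniporter regulators, 10 were tested, 5 higher and 5 lower. *Afg3l2*, a subunit of the protease that removes surplus EMRE, had 882, 760 and 667 normalized counts in CtrlCre and 1018, 964 and 1092 in Cpt1bcKO samples (log2 fold change 0.42, adjusted *P* = 0.228 in limma). *Slc25a23*, an inner membrane carrier of ATP-magnesium and phosphate, had 63, 72 and 65 normalized counts in CtrlCre and 54, 45 and 36 in Cpt1bcKO samples (log2 fold change −0.57, adjusted *P* = 0.298 in limma). *Mcur1*, a scaffold factor of the uniporter, had a log2 fold change of 0.0031, with 370 ± 64.2 normalized counts in CtrlCre and 373 ± 77.4 in Cpt1bcKO (SD, *n* = 3 each). *Mcub*, which encodes the inhibitory paralogue of MCU, had 0 to 3 normalized counts in the 6 samples and was not tested.

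Calcium leaves mitochondria mainly through the sodium–calcium exchanger NCLX, encoded by *Slc8b1*, which had only 5 to 10 normalized counts in the 6 samples and was not tested. Of the other genes of inner membrane exchange, 6 were tested, 4 higher and 2 lower. *Tmem65*, an inner membrane protein linked to sodium-dependent calcium efflux, had 1272, 1390 and 1230 normalized counts in CtrlCre and 965, 925 and 898 in Cpt1bcKO samples. All Cpt1bcKO samples lay below all controls, with a log2 fold change of −0.48 (standard error 0.129, 95% interval −0.77 to −0.19). Its unadjusted *P* value of 0.00373 was the lowest among the 70 genes, and its adjusted one was 0.116 in limma.

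Of 8 genes of the permeability transition and adenine nucleotide exchange, 4 were higher and 4 lower (median log2 fold change −0.028), and none had an unadjusted *P* value below 0.05. Of 19 genes of outer membrane contacts and VDAC partners, 4 were higher and 15 lower (median −0.065). *Mtx1*, a metaxin of the outer membrane, had 44, 35 and 25 normalized counts in CtrlCre and 21, 18 and 18 in Cpt1bcKO samples (log2 fold change −0.80, adjusted *P* = 0.277 in limma). *Mtx1* was the only gene of this list with an unadjusted *P* value below 0.05. Of 13 calcium-responsive enzymes and carriers, which include the dehydrogenases that matrix calcium stimulates, 5 were higher and 8 lower (median −0.15), and none had an unadjusted *P* value below 0.05. Of 14 genes that stand for mitochondrial content, such as *Cs* and *Sdha*, 1 was higher and 13 were lower (median −0.19), also with none below 0.05. These medians moved when 1 sample was left out, from −0.14 (without Cpt1bcKO replicate 1) to 0.092 (without Cpt1bcKO replicate 3) for the permeability transition. They lay between −0.16 (without Cpt1bcKO replicate 1) and −0.085 (without CtrlCre replicate 1) for outer membrane contacts, between −0.18 (without Cpt1bcKO replicate 1) and −0.059 (without CtrlCre replicate 2) for calcium-responsive enzymes, and between −0.29 (without Cpt1bcKO replicate 1) and −0.095 (without CtrlCre replicate 1) for content genes. When samples were scaled to their nuclear genes without rRNA, the median over the permeability transition list was 0.079 and over the outer membrane list 0.047, beside 0.11 over all genes, while those of the calcium-responsive and the content genes were −0.037 and −0.081. The log2 fold changes of *Vdac1* and *Vdac3*, −0.41 each, lay within the range of the CM markers (−0.996 to −0.22), and the lowest of the content genes was also at −0.41. Those of the other genes of the set, from −0.082 for *Micu2* to 0.46 for *Letm1*, lay above the range of the CM markers. A link of the set to either list was not tested.

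**Figure D5:**
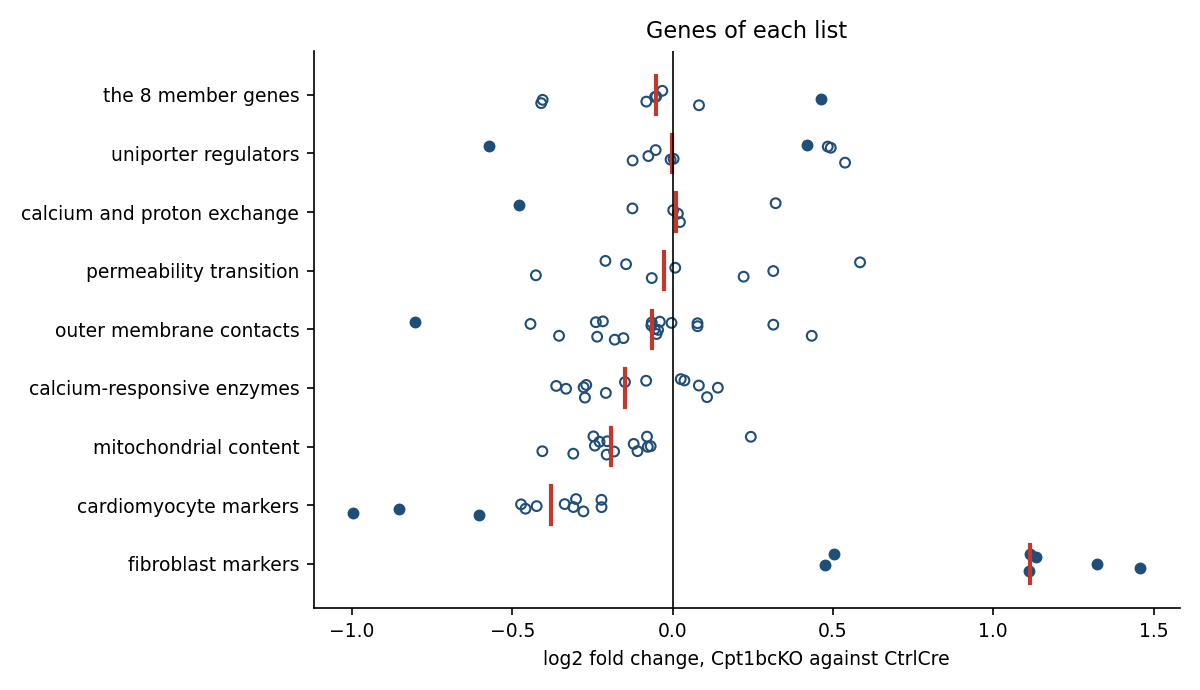
Log2 fold change (horizontal axis) of each tested gene in the 8-gene set, the 6 pathway lists and the CM and fibroblast marker lists. Filled points have an unadjusted *P* value below 0.05 in limma and red bars are medians, which run from −0.38 for the CM markers to 1.12 for the fibroblast markers.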

How the data were processed

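RNA-seq libraries of isolated adult CMs (3 CtrlCre, 3 Cpt1bcKO) were analysed from 1 deposited table. According to the methods and the submitters' processing notes, the authors trimmed reads with Trimmomatic, aligned them to mm10 (GRCm38.p5) with STAR (2.5.4b), counted reads that touch exons with featureCounts (1.6.0), and left out reads on several genes or regions. The annotation release and strand setting were not given in the sources used here. The deposited values, handled as a score, were taken to be counts that the authors scaled per sample by a size factor and rounded. Neither the paper nor the labels state this of the table, although an earlier text on these data describes the values so. The scaling was also inferred from the values, in which some low whole numbers never occur in a sample, unlike raw counts. Raw counts and the depth were not recovered and no count model was fitted. Columns with the authors' own means, fold changes and *P* values were not used.

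Values were transformed to log2(value + 1), on which fold changes of low genes are understated, and genes that reached 10 in 3 or more samples were fitted with limma 3.58.1 (R 4.3.3; trended prior variance, two-sided, adjusted over all genes tested). The steps were tested on simulated data. Ratios were compared with exact permutation tests in scipy 1.17.1. Exonic lengths are unions of exons in GENCODE vM21 (GRCm38). All 8 genes were named, with other genes of the pathway at an unadjusted *P* value below 0.05 and *Mcub*, *Mcur1* and *Slc8b1*. The rule lists 1 further gene by name, which is not reported here. The genes and lists were chosen with earlier results of these data known. Alternatives were other pseudocounts, filters, scalings and prior variance, a block for the replicate number, and leaving out each sample.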

Additional observations from a re-analysis of the deposited data

How the results depend on the processing

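*Letm1*, *Vdac1* and *Vdac3* kept their direction under all 15 alternatives. Without the replicate block, no alternative brought any of the 8 genes to an adjusted *P* value below 0.05, and the lowest was 0.0998, for *Vdac1* without Cpt1bcKO replicate 1 (limma). Scaling to nuclear genes without rRNA moved the median over all genes to 0.11 (log2) and gave 103 higher and 74 lower calls, against 75 and 103. With it *Mcu* was at 0.079, *Micu2* at 0.030, *Micu3* at 0.055 and *Vdac2* at 0.061, all below that median, and 8 of 70 other genes of the pathway had an unadjusted *P* value below 0.05, beside 15.2% of all genes. Scaling to the 75th percentile put *Mcu* at 0.013. With each sample left out, log2 fold changes ranged from −0.29 to 0.12 for *Mcu*, −0.25 to 0.081 for *Micu2*, −0.28 to 0.10 for *Micu3*, −0.0042 to 0.18 for *Smdt1*, −0.22 to 0.067 for *Vdac2*, −0.59 to −0.24 for *Vdac1* and −0.55 to −0.26 for *Vdac3*. The median of the 8 then ranged from −0.24 (without Cpt1bcKO replicate 1) to 0.070. Of the 8 genes 0 to 3 had an unadjusted *P* value below 0.05 (0 without CtrlCre replicate 3 or Cpt1bcKO replicate 2, 2 without CtrlCre replicate 2, 3 without Cpt1bcKO replicate 1) as did 2 to 15 other genes of the pathway (2 without CtrlCre or Cpt1bcKO replicate 2, 15 without Cpt1bcKO replicate 1), beside 8.82% of all genes without Cpt1bcKO replicate 2, 11.3% and 12.1% without CtrlCre replicates 3 and 2, and 19.9% without Cpt1bcKO replicate 1. Calls over all genes ranged from 40 without Cpt1bcKO replicate 2 to 305 without Cpt1bcKO replicate 1, and were 67 to 86 without 1 CtrlCre sample. Left-out samples also turned ratios, which ranged from −0.050 to 0.28 for *Smdt1* to *Mcu*, −0.21 to 0.082 for *Micu2* to *Mcu*, −0.40 to 0.39 for *Micu3* to *Mcu*, −0.21 to 0.36 for *Micu3* to *Micu2* and −0.049 to 0.042 for *Vdac1* to *Vdac3*. The share of *Vdac2* was then higher in Cpt1bcKO by 4.41 to 5.71 percentage points, an alternative added after the data were seen. This share restates the ratios of *Vdac2* to *Vdac1* and *Vdac3*. With 1 prior variance, 41 genes were called and *Cpt1b* (log2 fold change −2.27) was at an adjusted *P* of 0.0563 in limma. The cause of these changes was not tested.

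Same-numbered samples deviated from their group means together in pairs 1 and 2 (Pearson's *r* 0.376 and 0.255 across genes) but hardly in pair 3 (0.0684), and CtrlCre sample 3 correlated better with Cpt1bcKO sample 2 (0.119), so the numbers were not taken as pairs, and a factor shared by samples 1 or 2 was not tested. With the replicate block, 603 genes (5.31%) were called and 20.8% had an unadjusted *P* value below 0.05. Among the 8 genes 1 was called, *Vdac1* (log2 fold change −0.41, adjusted *P* = 0.0432 in limma, and 0.0998 to 0.751 under the other alternatives), and 3 had an unadjusted *P* value below 0.05. Of 70 other genes of the pathway 2 were called and 21 had an unadjusted *P* value below 0.05. The depth behind low values such as those of *Micu3* and *Mcub* is unknown.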
